A study of Mus musculus with 4 samples.

Results

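Genes that drive the cell division cycle and copy the DNA were followed across 4 mouse pluripotent lines. The set was a list of 44 genes sorted into working groups named by phase: 15 of G1, 13 of S phase and 16 of G2 and mitosis (G2-M). Of these, 43 were measured, out of 18193 genes on the array. The level of Ccnb1 was not analysed, because no probe set was paired with it alone, but its promoter was searched. Where a gene had several probe sets, the one brightest on average was taken.

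The starting line, called the clone below, was an iPSC (induced pluripotent stem cell) clone, derived with adenoviral vectors from tail-tip fibroblasts of a mouse (Adeno-1, 1 array). Nuclei of that clone were transferred into eggs, and 3 embryonic stem cell lines from the cloned blastocysts (NT-1, NT-2 and NT-3, here lines 1, 2 and 3, with 1 array each) were profiled beside it. The lines thus descend from nuclei that had already been reprogrammed with vectors, and the labels give no strain, sex or passage. All grew in serum and LIF on irradiated embryonic fibroblasts, which were depleted by a short replating before RNA extraction. The clone is a single clone on a single array, and the labels do not say whether the lines came from separate blastocysts, so SDs and p-values measure only the spread between these arrays, which may be technical. Levels are log2 intensities with each array's mean set to an assumed 7, and all differences are on that log2 scale.

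In G1, D-type cyclins with Cdk4 or Cdk6, and then cyclin E with Cdk2, phosphorylate the retinoblastoma protein and its relatives p107 and p130, which releases E2F transcription factors; the inhibitors p27 (Cdkn1b) and p16 (Cdkn2a) oppose this. Origins are licensed by Cdc6 and Cdt1, which load the Mcm2-7 helicase, and geminin (Gmnn) prevents a further round. Cyclins A and B with Cdk1 then drive mitosis until Cdc20 and the anaphase-promoting complex destroy them. Mouse embryonic stem cells are known for a short G1 with highly phosphorylated retinoblastoma protein.

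Across the set, the clone and its lines lay close together. The median range of a member over the 4 arrays was 0.19, against 0.18 over all genes, and 5 members, all of G1, ranged over more than 0.5 (11.6% of the set, against 4.21% of all genes and 4.73% of genes at a level of 10 or more). In limma's test of the lines against the clone no member was called, and none of the 18193 genes was (0% called, Benjamini-Hochberg adjusted p under 0.05). At an unadjusted p under 0.05, 6 members were higher and 0 lower, where 3.46% of all genes were higher and 2.07% lower, and 4.43% and 0.682% of the 2052 genes with a mean level of 10 or more. Most members are that bright, with a median level of 10.92. These 6 were Mki67, Cdc25b, Cdc25c and Bub1 of G2-M and Ccnd3 and Cdkn1b of G1. Only 3 members reached that p after quantile normalization or without line 2. The median difference was 0.058 over the 43 members, -0.003 over all genes and 0.029 over those 2052 bright genes. The clone was the lowest of the 4 arrays for 18 members (41.9%) and the highest for 7 (16.3%). Over all genes it was lowest for 24.7% and highest for 26.7%, and over the genes at 10 or more for 34.8% and 18.5%.

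**Figure D1:**
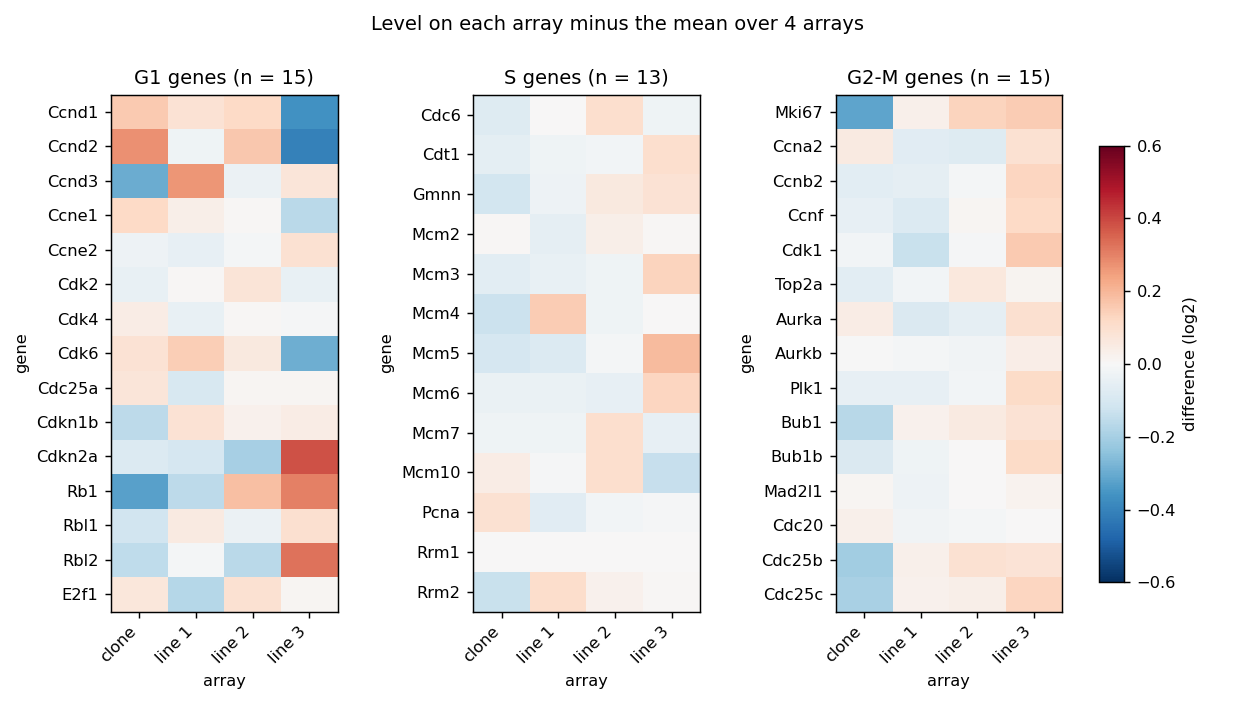
Each cell is the level of 1 gene on 1 array minus that gene's mean over the 4 arrays (log2; red higher, blue lower), for the 15 G1, 13 S and 15 G2-M genes measured; columns are the clone and lines 1 to 3. Strong colours are seen in line 3 for Ccnd1, Ccnd2, Cdk6, Cdkn2a and Rbl2 and in the clone for Rb1, Ccnd3 and Mki67.

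Set singly against the clone, line 3 had the most members past a difference of 0.3, which is 1.23-fold. In line 1, 2 members were higher by more than 0.3 (Ccnd3 and Mki67) and 0 lower, against 3.24% and 2.17% of all genes and 3.17% and 0.731% of those at a level of 10 or more. In line 2, 3 were higher (Rb1, Mki67 and, just past the limit at 0.30, Cdc25b) and 0 lower, against 2.94% and 1.57% of all genes and 3.56% and 0.39% of the bright ones. In line 3, 6 were higher (Ccnd3, Rb1, Rbl2, Cdkn2a, Mki67 and Cdc25c) and 3 lower (Ccnd1, Ccnd2 and Cdk6), against 5.26% and 3.67% of all genes and 8.53% and 3.07% of the bright ones. Each pair holds 1 array a side, so there is no test, and the 3 comparisons share the clone array. No S-phase member passed the limit in any line.

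**Figure D2:**
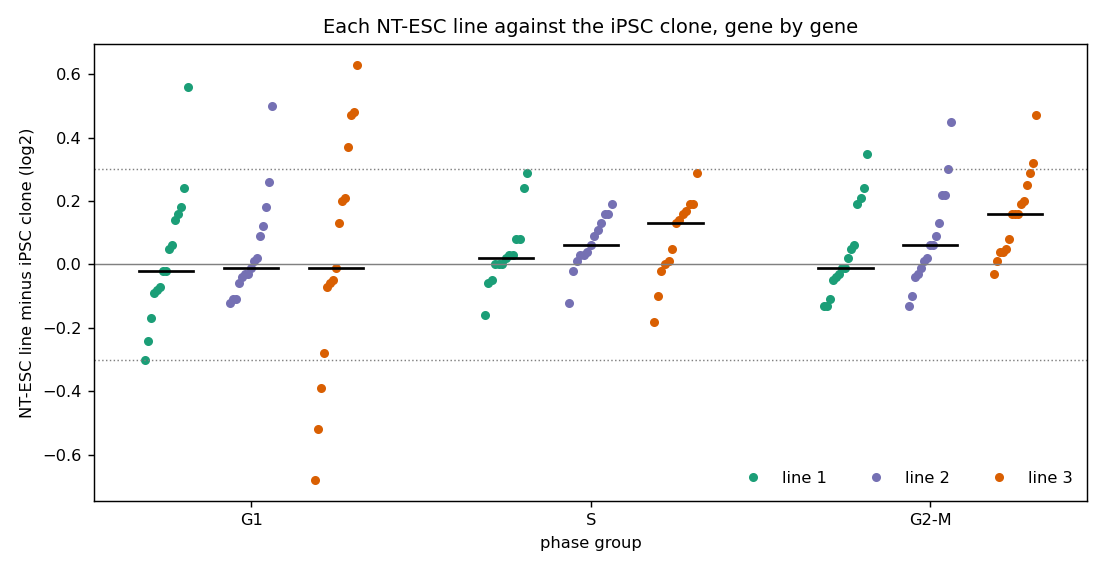
Each point is 1 gene's level in 1 NT-ESC line minus its level in the clone (log2), by phase and coloured by line; black bars are medians and dotted lines mark 0.3 and -0.3. The S-phase points all lie inside the dotted lines, and the G1 points of line 3 spread from -0.68 to 0.63.

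The 15 G1 genes held the largest differences, and they ran in both directions. Of the D-type cyclins, Ccnd1 stood at 10.36 in the clone, then 10.29, 10.32 and 9.84 in lines 1, 2 and 3. Ccnd2 stood at 9.70 in the clone, then 9.40, 9.59 and 9.02 in the lines. Both were lowest in line 3, and the clone, line 1 and line 2 lay close together for Ccnd1. Ccnd3 went the other way, from 10.99 in the clone to 11.55, 11.25 and 11.36, and here the clone lay below every line. Against the clone the lines differed by -0.21 ± 0.20 (SE) for Ccnd1, -0.36 ± 0.22 for Ccnd2 and 0.40 ± 0.13 for Ccnd3 (limma, Benjamini-Hochberg adjusted p = 0.856 for Ccnd3). Without line 3 the differences were -0.06 for Ccnd1 and -0.20 for Ccnd2. All 3 probe sets of Ccnd1 and all 7 of Ccnd2 had the lines below the clone; for Ccnd3, 2 of 3 had them above, with differences from -0.04 to 0.40. Cdk6, a kinase partner of the D cyclins, stood at 8.05, 8.11 and 8.02 in the clone and lines 1 and 2, and at 7.67 in line 3. Its relative Cdk4 ranged over 0.09 on the 4 arrays.

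On the brightest probe sets, the pocket proteins, which bind and restrain E2F, were not lower in any line than in the clone by more than 0.01. Other probe sets of Rbl1 and Rbl2 had mean differences down to -0.05 and -0.07. Rb1, which encodes the retinoblastoma protein, stood at 7.53 in the clone, then 7.70, 8.04 and 8.16 in the lines, a difference of 0.43 ± 0.18 (SE), with a second probe set at 0.08. Rbl1, which encodes p107, stood at 8.22 in the clone, then 8.39, 8.30 and 8.43. Rbl2, which encodes p130, stood at 6.23 in the clone, then 6.37, 6.22 and 6.71, so line 3 was apart and line 2 was level with the clone; its mean lay below 6.832, the median level over the whole array. E2f1, an activating E2F, stood at 9.42, 9.18, 9.44 and 9.36, lowest in line 1.

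Of the CDK inhibitors in the set, Cdkn1b stood at 8.92 in the clone, then 9.16, 9.10 and 9.12 in the lines (0.21 ± 0.08, SE). The lines were within 0.06 of each other, all above the clone. Cdkn2a, whose probe set covers a locus encoding both p16 and the p53 regulator p19Arf, stood at 6.59, 6.57 and 6.47 in the clone and lines 1 and 2, and at 7.05 in line 3. The remaining G1 members, Ccne1, Ccne2, Cdk2 and the phosphatase gene Cdc25a, had differences from -0.16 to 0.05. Ccne1, which encodes cyclin E1, was highest in the clone at 11.48 and lowest in line 3 at 11.20. Over all 15 G1 genes the median difference was 0.043, was 0.003 without line 3 and 0.021 without line 2, and turned to -0.056 without the dim genes Rbl2 and Cdkn2a.

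Line 3 against the other 3 arrays was tested by limma on all genes, and 84 genes were called (0.462%), none of them a member. The 7 members at an unadjusted p under 0.05 were 3 higher and 4 lower, where 5.8% of all genes were higher and 5.76% lower (9.55% and 5.85% at a level of 10 or more), and 6 of the 7 belong to G1. Ccnd1 differed by -0.48 ± 0.08 (SE), from a mean of 10.32 ± 0.04 (SD, n = 3) on the other arrays (limma, Benjamini-Hochberg adjusted p = 0.0699). Cdkn2a differed by 0.51 ± 0.09 (limma, Benjamini-Hochberg adjusted p = 0.0716, and 0.04 with genes taken as the mean of their probe sets, though it has 1 probe set). Ccnd2 differed by -0.55 ± 0.12 (adjusted p = 0.119 by limma), Cdk6 by -0.40 ± 0.08 (0.104), Rbl2 by 0.44 ± 0.09 (0.106) and Ccne1 by -0.22 ± 0.09 (0.382). For these 6 genes line 3 lay outside the values of the other 3 arrays. All probe sets of Ccnd1, Ccnd2, Cdk6, Ccne1 and Rbl2 had the same sign in line 3. In line 1, E2f1 was the 1 member at an unadjusted p under 0.05 (1.39% of all genes were lower there and 1.39% higher), and in line 2 there was none (1.25% higher and 1.08% lower). When any 1 of the other arrays was left out, 0 genes in all were called for line 3, with 1 fewer array in the fit.

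**Figure D3:**
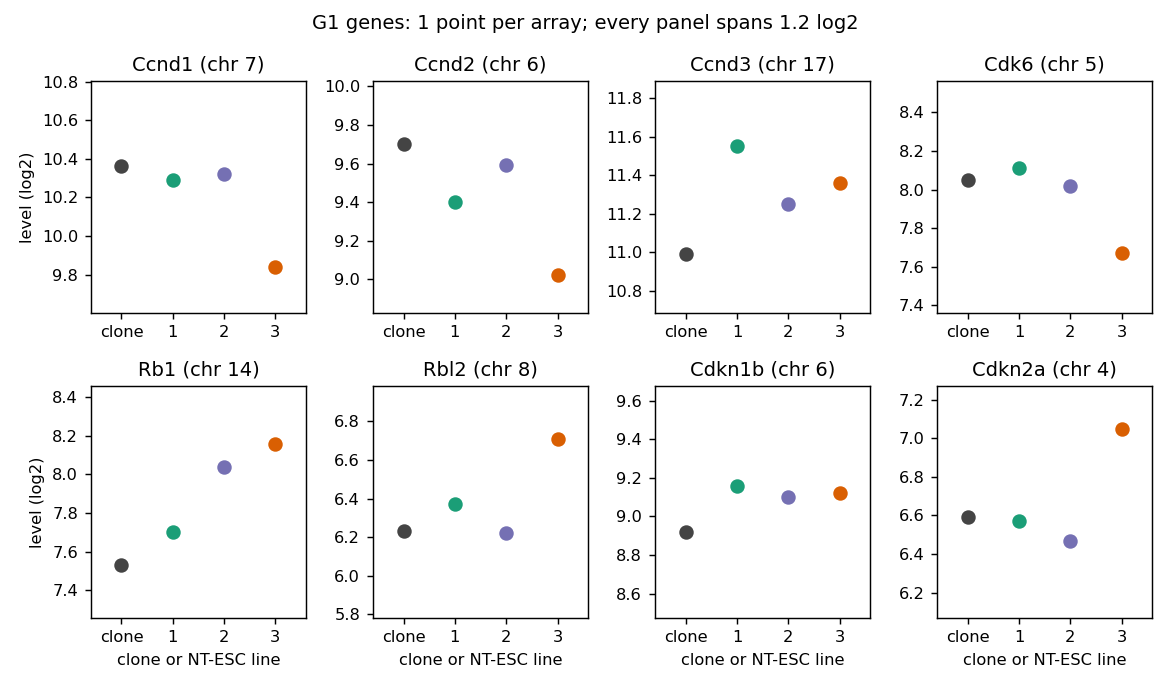
Each panel plots the level (log2) of 1 G1 gene on the clone array and on lines 1 to 3, with panels of equal height; chr gives the chromosome. Line 3 is the lowest for Ccnd1 at 9.84, Ccnd2 at 9.02 and Cdk6 at 7.67 and the highest for Rbl2 at 6.71 and Cdkn2a at 7.05, while for Ccnd3 and Cdkn1b the clone lies below all lines.

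Markers of other cells were read beside these values; in a bulk sample fewer cells of a type and less RNA per cell cannot be told apart. Of 22 listed feeder fibroblast symbols, which include an older symbol of Ccn2 (Ctgf), 20 were measured. Their summed level was 168.7 in the clone and 169.1, 171.5 and 168.2 in the lines. Line 3 was the lowest array for 6 of the 20, near the share over all genes (28.8%). Line 2 was the highest for 11, and the share of all genes highest in line 2 was not computed. The contractile genes Acta2 and Tagln and the matrix gene Ccn2 stood at 9.80, 9.40 and 9.83 in line 3, each the lowest there, while Col1a1 at 9.95 and Col3a1 at 9.57 in line 3 were not. The 8 pluripotency markers, with Pou5f1 at 12.20 to 12.25, had mean levels from 12.24 in the clone to 12.31 in lines 2 and 3. The summed level of the 7 trophectoderm markers was 49.8 in the clone and 51.8, 51.2 and 49.9 in the lines. Of these, the keratins Krt8 and Krt18 stood at 8.39 and 8.30 in the clone, at 9.62 and 9.37 in line 1, at 9.35 and 9.08 in line 2 and at 8.41 and 8.01 in line 3. Eomes was highest in line 3, at 8.38 against 7.65 to 7.99 on the other arrays, and Cdx2 was highest in the clone, at 6.45 against 6.08 to 6.23 in the lines. Of 8 primitive endoderm markers, 6 lay below the array's median level; the other two were Lama1, at 8.94, 9.58, 9.14 and 8.41 in the clone and lines 1, 2 and 3, lowest in line 3, and Dab2, at 7.32, 7.34, 7.48 and 7.68, highest there. The part of these cell types in the members' values was not tested.

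The 13 S-phase genes had the smallest maximum range of the phase groups. It was 0.29 over the 4 arrays, against 0.47 in G2-M and 0.68 in G1. The median range was 0.19 in S phase and also 0.19 in G2-M. None of the 13 reached an unadjusted p under 0.05 against the clone, and the median difference was 0.075, or 0.033 without line 3. The helicase that unwinds DNA at the fork was measured in all of its 6 subunits. Mcm2 stood at 11.51 in the clone, then 11.45, 11.54 and 11.51 in lines 1, 2 and 3. Mcm7 stood at 12.69, 12.69, 12.82 and 12.67 in the same order. Mcm4 stood at 11.08 in the clone, then 11.36, 11.18 and 11.21, and line 1 was its highest array. Line 3 was thus inside or within 0.02 of the range of the other arrays for these subunits. It was the highest array for the other 3. Mcm3 stood at 11.59, 11.61, 11.63 and 11.79, and Mcm6 at 11.82, 11.82, 11.81 and 11.99. Mcm5 stood at 12.19, 12.21, 12.28 and 12.48. Against the other arrays line 3 differed by 0.18 for Mcm3 and 0.17 for Mcm6, both on chromosome 1, and by 0.25 ± 0.08 (SE) for Mcm5, on chromosome 8 (limma, Benjamini-Hochberg adjusted p = 0.296). Mcm2, Mcm4 and Mcm7, on other chromosomes, differed by 0.02, 0.00 and -0.06. All 3 probe sets of Mcm5 were higher in line 3, by 0.25 to 0.51.

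**Figure D4:**
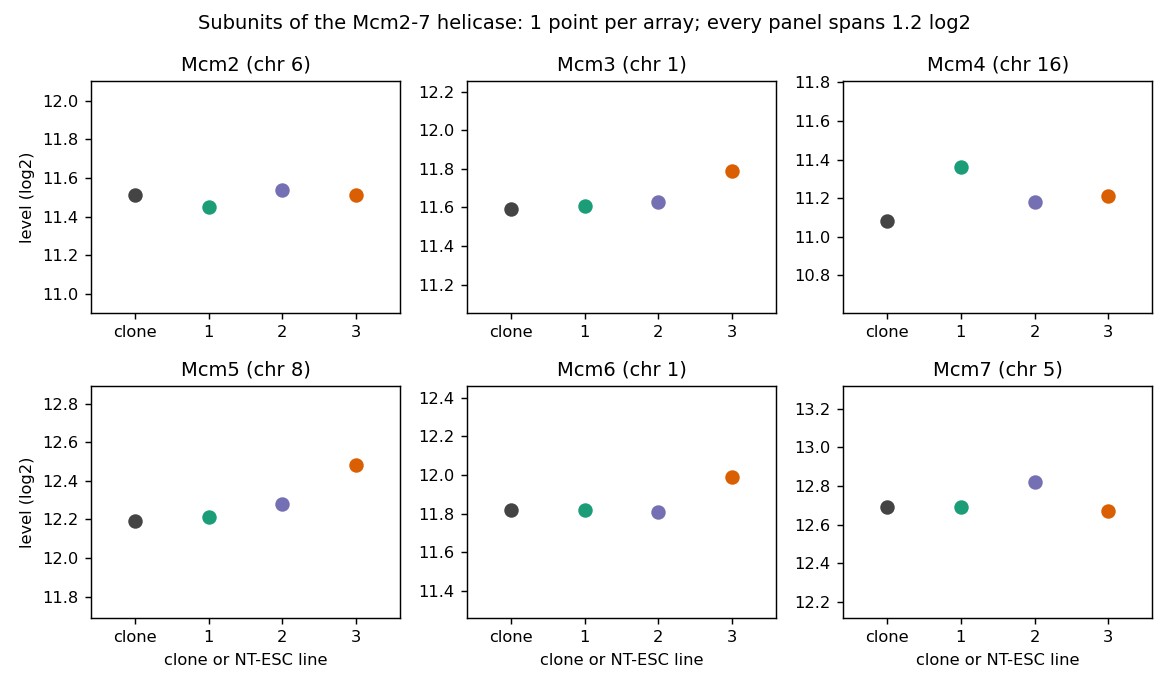
Each panel plots the level (log2) of 1 subunit of the Mcm2-7 helicase on the clone array and on lines 1 to 3, with panels of equal height. Line 3 is highest for Mcm3 at 11.79, Mcm5 at 12.48 and Mcm6 at 11.99 and not for Mcm2, Mcm4 or Mcm7.

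Among the licensing factors, Gmnn stood at 10.63 in the clone, then 10.71, 10.80 and 10.83 in the lines, a difference of 0.15 ± 0.08 (SE). Cdt1, which geminin binds, stood at 12.01 in the clone, then 12.04, 12.05 and 12.17. Cdc6 differed by 0.11 and Mcm10, which helps start the fork, by -0.06. The clone was the lowest array for Gmnn, Cdt1 and Cdc6, by margins of 0.03 to 0.08 to the nearest line. Of the genes for making nucleotides, Rrm2, the regulated subunit of ribonucleotide reductase, stood at 12.02 in the clone, then 12.26, 12.18 and 12.16 (0.18 ± 0.08, SE). Its partner Rrm1 stood at 10.92 on every array. Pcna, the sliding clamp of the DNA polymerases, went slightly the other way, at 12.97 in the clone and 12.81, 12.86 and 12.87 in the lines.

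Promoter sequences were searched for motifs. In RefSeq windows of GRCm38.p6, from 250 bases before to 50 after a start site, 35 of the 44 listed genes had an entry. Ccnb1, whose level was not measured, was among the 35 and is counted with the G2-M genes. E2F motifs were searched as TTTCCCGC, TTTGGCGC, TTTCGCGC or TTTGCCGC on both strands; matches may overlap. They were found for 6 of 11 S-phase genes (54.5%), 4 of 11 G1 genes (36.4%) and 1 of 13 G2-M genes (7.7%), against 626 of 27025 genes in the table (2.3%). Mcm5 and Mcm6 are shown because line 3 stood highest for both and both hold overlapping E2F matches, with the start site just after the last base; capitals mark E2F matches and CCAAT boxes (ATTGG on the other strand). The Mcm5 stretch lies at chr8:75109349-75109508 on the plus strand and the Mcm6 stretch at chr1:128359706-128359825 on the minus strand.
Mcm5: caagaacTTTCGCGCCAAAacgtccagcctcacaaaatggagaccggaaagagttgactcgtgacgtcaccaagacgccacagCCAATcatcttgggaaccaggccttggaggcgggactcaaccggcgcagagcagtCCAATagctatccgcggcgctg
Mcm6: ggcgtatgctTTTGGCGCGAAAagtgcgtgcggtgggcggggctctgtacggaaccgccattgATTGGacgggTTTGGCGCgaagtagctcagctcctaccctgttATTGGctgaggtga
A match is a description of the letters and not a shown binding site.

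The 15 measured G2-M genes had a median difference of 0.064, or 0.015 without line 3, and a few stood lower in the clone. Mki67, the proliferation antigen that coats mitotic chromosomes, stood at 10.34 in the clone, then 10.69, 10.79 and 10.81 in the lines. The lines lay within 0.12 of each other and 0.35 or more above the clone, a difference of 0.42 ± 0.09 (SE), which is 1.34-fold (limma, Benjamini-Hochberg adjusted p = 0.856). It was the largest difference of the G2-M genes, and Mki67 has 1 probe set. Cdc25b and Cdc25c, genes of phosphatases that activate Cdk1, also had the clone as the lowest array. Cdc25a, the phosphatase gene counted with G1, had the clone highest, at 10.27 against 10.10, 10.21 and 10.21 in the lines. Over the 3 probe sets of Cdc25a the differences went from -0.10 to 0.13. Cdc25b stood at 8.29 in the clone, then 8.53, 8.59 and 8.58 (0.28 ± 0.08), and Cdc25c at 8.39 and 8.61, 8.62 and 8.71 (0.25 ± 0.09). Bub1, a kinase of the spindle checkpoint, stood at 11.00 in the clone, then 11.19, 11.22 and 11.25 (0.22 ± 0.08). A second probe set of Bub1 was at 0.08. For Mki67, Cdc25b, Cdc25c and Bub1 the clone lay below every line. Without line 2 or after quantile normalization, Bub1 and Cdc25c no longer had an unadjusted p under 0.05.

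The other 11 measured G2-M genes were those that did not reach an unadjusted p under 0.05. Their smaller differences on the probe sets taken thus follow from how they were set apart. Cdk1, the mitotic kinase, stood at 11.63 in the clone, then 11.51, 11.64 and 11.80 in the lines, so the clone lay inside their range. Ccnb2, which encodes cyclin B2, differed by 0.09, Ccna2 (cyclin A2) by -0.07 and Ccnf (cyclin F) by 0.06. The kinase genes Plk1, Aurka and Aurkb differed by 0.06, -0.06 and 0.00. A second probe set of Aurkb was at 0.22. Cdc20, the activator of the anaphase-promoting complex, stood at 12.40, 12.35, 12.36 and 12.37, and the checkpoint gene Mad2l1 at 11.00, 10.96, 10.99 and 11.01. Top2a, the topoisomerase that untangles chromosomes, differed by 0.09 and the checkpoint kinase gene Bub1b by 0.12. Over all their probe sets, Top2a went from 0.08 to 0.33 and Bub1b from -0.03 to 0.13. For 9 of these 11 genes the difference on the probe set taken was smaller than its SE, and for Top2a and Bub1b it was at most 0.12.

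Line 3 was the highest of the 4 arrays for 12 of the 15 G2-M genes (80%), against 25.7% of all genes and 28% of genes at a level of 10 or more. The line was the lowest for 0 of the 15, against 28.8% of all genes and 30.8% of the bright ones. None of the 15 lies on chromosome 8 or 1. The differences from the other 3 arrays were small, with a median of 0.122 and the largest at 0.20 for Mki67 and Cdk1, and none reached an unadjusted p under 0.05. The count was 10 after quantile normalization and 13 after median centring. Plk1, for example, stood at 10.86, 10.86 and 10.89 on the other arrays and at 11.02 in line 3, and Ccnb2 at 11.46, 11.47 and 11.51 and then at 11.65. In the same line 5 of 15 G1 genes and 5 of 13 S-phase genes were highest; whether the phases differ in this was not tested.

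Motifs of G2-M promoters were counted in the same windows. The cell cycle homology region was searched as TTTGAA or TTTAAA on both strands, and was found for 10 of 13 G2-M genes (76.9%), against 3 of 11 S-phase genes, 3 of 11 G1 genes and 27.8% of all genes in the table. CCAAT was found for 12 of 13 G2-M genes (92.3%), 9 of 11 S-phase genes (81.8%) and 3 of 11 G1 genes (27.3%), against 37.9% of all genes. Promoters of 3 genes are shown to set the gene with the largest G2-M difference, Mki67, beside Cdk1 and Cdc20, for which the lines and the clone differed little; capitals mark the homology region, CCAAT boxes in either orientation and, in Cdk1, an E2F match. They lie at chr7:135716380-135716579 on the minus strand (Mki67), chr10:69352913-69353052 on the minus strand (Cdk1) and chr4:118437344-118437443 on the minus strand (Cdc20).
Mki67: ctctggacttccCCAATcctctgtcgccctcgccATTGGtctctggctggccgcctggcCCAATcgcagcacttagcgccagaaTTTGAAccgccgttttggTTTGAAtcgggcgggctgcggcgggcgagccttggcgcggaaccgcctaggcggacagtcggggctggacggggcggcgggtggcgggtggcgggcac
Cdk1: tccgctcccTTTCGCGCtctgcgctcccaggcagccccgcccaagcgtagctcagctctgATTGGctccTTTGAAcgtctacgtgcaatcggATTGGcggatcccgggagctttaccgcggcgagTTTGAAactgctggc
Cdc20: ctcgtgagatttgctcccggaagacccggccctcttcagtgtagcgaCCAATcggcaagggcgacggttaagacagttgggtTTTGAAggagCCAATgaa
All 3 stretches hold both motifs, Cdk1 and Cdc20 as well as Mki67. The windows of Bub1 and Cdc25b hold CCAAT without the homology region.

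On the probe sets taken, all 10 listed cell cycle genes on chromosome 8 were highest in line 3. The 3 members on that chromosome, Cdt1, Mcm5 and Rbl2, were each highest in line 3, by 0.14, 0.25 and 0.44 over the mean of the other arrays. Of the 3 probe sets of Cdt1, 2 were higher in line 3, with differences from -0.06 to 0.20. Of all 124 genes on chromosome 8 at a mean level of 10 or more, 95.2% were highest in line 3, with a median of 0.367, against 20.6% of genes that bright on chromosomes other than 8 and 1. Over all 932 genes of the chromosome, 66.1% were highest in line 3, with a median of 0.180, against 22.4% elsewhere. The Rbl2 promoter is shown because Rbl2 differed most of the 3; the stretch, at chr8:91069847-91070056 on the plus strand, has the letters TTTAAA and, on the other strand, TTTGAA, marked in capitals, and no CCAAT or E2F match.
Rbl2: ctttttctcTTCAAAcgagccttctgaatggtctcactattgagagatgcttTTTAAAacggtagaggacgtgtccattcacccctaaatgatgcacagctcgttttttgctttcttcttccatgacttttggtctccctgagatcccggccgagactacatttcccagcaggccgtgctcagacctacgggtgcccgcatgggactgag
The 7 further genes on chromosome 8 came from lists of other cell cycle genes, and all were highest in line 3. Tfdp1, the dimer partner of E2F proteins, stood at 11.19, 11.15 and 11.05 on the other arrays and at 11.63 in line 3, a difference of 0.50 ± 0.09 (SE; limma, Benjamini-Hochberg adjusted p = 0.0825). E2f4, the main repressive E2F, stood at 9.66, 9.46 and 9.52 and then at 9.85. Orc6, of the origin recognition complex, stood at 10.24, 10.18 and 10.16 and then at 10.56. Line 3 was the highest array for these genes, as it was for 66.1% of the 932 genes on the chromosome. Of the GINS complex, which joins the helicase at the fork, Gins4 differed by 0.40, Gins3 by 0.31 and Gins2 by 0.29, while Gins1, on chromosome 2, differed by -0.22. Cdc16, of the anaphase-promoting complex, differed by 0.46. None of the 10 was called (smallest limma Benjamini-Hochberg adjusted p = 0.0825).

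**Figure D5:**
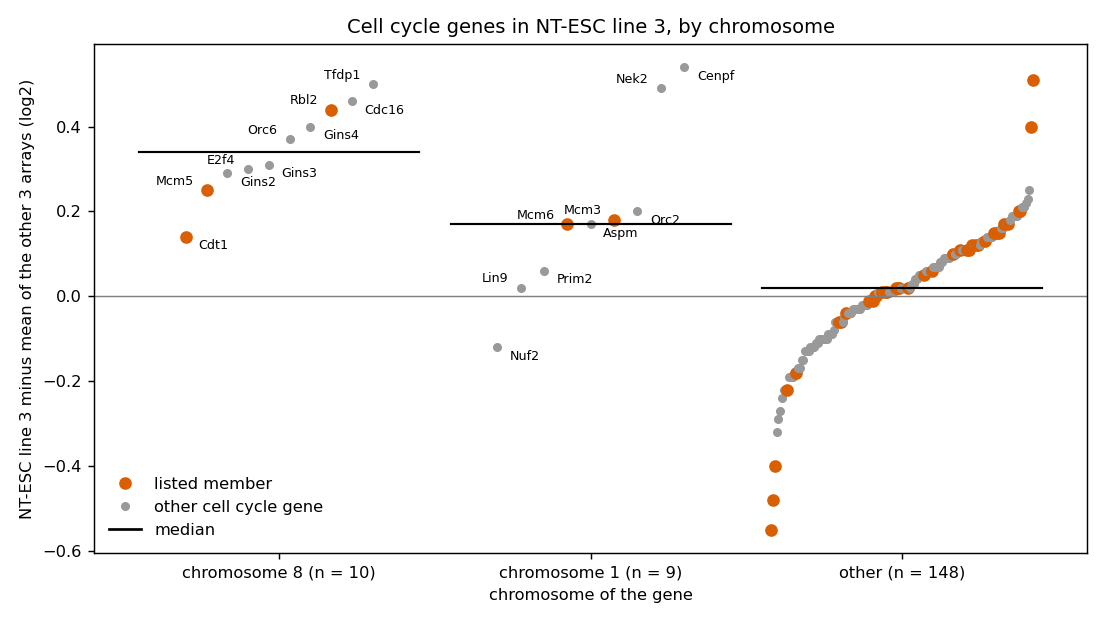
Each point is 1 cell cycle gene, plotted as its level in line 3 minus the mean of the other 3 arrays (log2), grouped by chromosome; orange points are members, grey points genes of the other cell cycle lists, and bars are medians. All 10 genes on chromosome 8 lie above 0, from 0.14 for Cdt1 to 0.50 for Tfdp1, and the 148 genes on other chromosomes centre near 0 with a median of 0.021.

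Chromosome 1 held 9 of the listed genes, with a median of 0.173 in line 3. Cenpf, a kinetochore protein gene, stood at 10.61 in the clone, then 10.80, 10.91 and 11.32 in the lines, and Nek2, a centrosome kinase gene, at 9.75, 9.92, 9.93 and 10.36. Both were highest in line 3, by 0.54 and 0.49, and for both the clone was the lowest array. Nuf2, also on chromosome 1, was lowest in line 3 (-0.12). Over all 1057 genes of that chromosome the median was 0.041, and 0.204 over its 116 genes at a level of 10 or more.

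The wider lists put the members in context. Of 51 other mitosis genes, 40 were higher on average in the lines than in the clone. So were 8909 of all 18193 genes and 1270 of the 2052 genes at a level of 10 or more. Of the 51, 32 had the clone as the lowest array (62.7%, against 24.7% of all genes and 34.8% of those bright genes). Their median difference was 0.097. At an unadjusted p under 0.05, 7 were higher and 0 lower, where 3.46% of all genes were higher and 2.07% lower, and 4.43% and 0.682% of the bright ones; none was called. The largest differences were those of Cenpf (0.40), Nek2 (0.32) and the kinesin gene Kif2c (0.29 ± 0.10, SE), and the lowest those of Ube2c (-0.12), Ube2s (-0.11) and Ccnb3 (-0.05). Kif2c stood at 9.97 in the clone, then 10.15, 10.31 and 10.31. Of 48 measured other replication genes 28 were higher and 20 lower on average, with a median of 0.040. On the probe sets taken, 2 reached an unadjusted p under 0.05, both higher, which is near the share over all genes. They were the origin-firing kinase gene Cdc7 (0.29 ± 0.11) and Topbp1 (0.23 ± 0.08). The second probe set of Topbp1 went the other way, at -0.11, and that of Cdc7 was at 0.08. On the probe sets taken, Rrm2b differed by 0.19, and Prim1, Tyms and Tk1 by -0.18, -0.16 and -0.14. Only 1 of the 4 probe sets of Rrm2b had the lines higher, with differences from -0.16 to 0.19. Those of Tyms went from -0.17 to 0.06, and the one taken, at 5.89 to 6.10, lay below the array's median level.

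Of 25 measured other G1 and E2F genes 10 were higher and 15 lower on average, with a median of -0.031. Over all genes 8909 were higher and 9284 lower. Cdkn1a, which encodes the p53-induced inhibitor p21, stood at 9.98 in the clone, then 10.31, 10.39 and 10.31 in the lines (0.36 ± 0.08, SE). Cdkn1c, which encodes the imprinted inhibitor p57, stood at 8.94 in the clone, then 8.40, 8.71 and 8.49 (-0.40 ± 0.13). These inhibitors went opposite ways, and both had an unadjusted p under 0.05, as no other gene of the list did. Lin54 (0.22), E2f8 (0.22), E2f5 (-0.20) and Ccnh (-0.20) were the next by size. Other probe sets of E2f8 and E2f5 went the other way, to -0.08 and 0.05.

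The clone array also differed in technical measures, whose part in these small differences was not tested. The SD of its ratios was 0.2788, against 0.2817 to 0.2830 on the lines. Its added hybridization controls were the lowest of the 4 arrays, with the cre control at 13.82 against 13.92 to 14.01. For Actb, the 3' probe set exceeded the 5' one by 0.22 in the clone, 0.28 in line 1, 0.42 in line 2 and 0.29 in line 3.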

How the data were processed

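Total RNA of 4 samples was turned into biotin-labelled cRNA and measured on Affymetrix arrays, per the labels' protocols. The authors deposited 1 log2 value per probe set and array with 3 decimals; the software behind them is not given in the sources used here. Since 2 to the power of the value averaged 1 over every array, a value was read as the log2 of the ratio of a probe set's log intensity to the array average, and a level was computed as that ratio times an assumed mean of 7. Of 45101 probe sets, 34945 had 1 gene in the platform annotation, with symbols and chromosomes updated from RefSeq (GRCm38.p6), giving 18193 genes by the probe set of highest mean. Probe sets that match related transcripts can share signal.

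Differences were tested on all genes with limma 3.58.1 in R 4.3.3 (two-sided moderated test of lmFit and eBayes; p adjusted by Benjamini-Hochberg over all genes, threshold 0.05), with 2 residual degrees of freedom and the lone array taken to vary like the others. The fit was tested on simulated data, where recovery was required only at a difference of 2, larger than that of any member. The simulation thus does not show that differences as small as the members' would be called. Alternatives were other assumed means, the deposited values as given, the mean of a gene's probe sets, quantile normalization, median centring, no dim genes and leaving out each array. The members and lists were chosen with earlier results of these data known. All 43 measured members were described, with values by array for the largest differences per phase, chromosome 8, ranges over 0.5 and Mcm2-7. For promoters the table's first window of each gene was used. The number of arrays limits the precision.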

Additional observations from a re-analysis of the deposited data

How the results depend on the processing

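For the lines against the clone limma called 0 genes under every alternative run (1006 at an unadjusted p under 0.05 in the fit reported). Of the 17 single-gene differences recomputed under 109 alternatives, none changed sign and 108 stayed on their side of the threshold; Cdkn2a in line 3 was called with the mean of probe sets. The members at an unadjusted p under 0.05 against the clone, 6, were 3 after quantile normalization and 3 to 5 when 1 line was left out. The G1 median of 0.043 was 0.037 with an assumed mean of 6, 0.049 with a mean of 7.86, 0.008 on the deposited values as given, 0.013 after quantile normalization, -0.056 without dim genes and 0.003 to 0.056 when 1 line was left out; the S median of 0.075 was 0.009 on the deposited values, whose scale differs, and 0.033 without line 3, and the G2-M median of 0.064 was 0.015 without line 3. The 84 genes called for line 3 were 168 with the mean of probe sets and 0 to 0 when another array was left out, and the members among them 1 and 0. Members higher by 0.3 in line 1, 2, were 1 with an assumed mean of 6 and 1 with the mean of probe sets, and the members lower there 1 after quantile normalization. The chromosome 8 median in line 3, 0.251, was 0.378 with the mean of probe sets. The causes were not tested. No paired analysis was possible because the clone has 1 array. An assumed mean of 6 changes every difference by -14.3% and a mean of 7.86 by 12.3%.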
